A study of Mus musculus with 16 samples.

Results

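The genes that load peptide onto MHC class I molecules, with the inducible subunits of the proteasome, were followed through 4 subsets of mouse spleen dendritic cells and 2 genotypes. The set was chosen by gene name and comprised 10 of the 24116 genes in the count table: B2m, H2-K1, H2-D1, Tap1, Tap2, Tapbp, Nlrc5, Psmb8, Psmb9 and Erap1. All 10 were found, and all 10 passed the filter on low counts that left 13790 genes for testing. The lowest count of any of them in any library was 1307.

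The libraries came from dendritic cells sorted from spleen. Genotype is given as CKO or WT; the gene deleted in the CKO mice is Etv6, which encodes an ETS-family transcription factor, according to the study's title. The subsets are labelled Dec205, pDC, Esamlo and Esamhi, with 2 CKO and 2 WT libraries each, 16 in all. The sources used here name no Cre driver, allele, sorting gate, or strain, age or sex of the mice. Paired libraries may or may not come from different mice, so the p-values below measure the spread between libraries, which may be technical. Marker lists were highest in the subset each is named for. A list of 10 genes typical of type 1 classical dendritic cells summed to 10046 to 11557 CPM (counts per 1000000 counts, scaled by edgeR's TMM factors) in Dec205 libraries and at most 1375 CPM in Esamlo and Esamhi, the ESAM subsets; its sum in pDC libraries, 6912 to 7257 CPM, includes Irf8, which pDC also express. A list of 10 genes typical of type 2 classical cells summed to 2532 to 3563 CPM in the ESAM subsets and 317 to 506 CPM in Dec205 libraries, but also to 2320 to 2497 CPM in pDC libraries. A list of 10 plasmacytoid genes summed to 15247 to 17411 CPM in pDC libraries and at most 535 CPM in the others, and 5 genes typical of ESAM-high cells summed to 931 to 1284 CPM in Esamhi and 301 to 394 CPM in Esamlo libraries, but also to 393 to 598 CPM in pDC libraries.

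Class I molecules are heterodimers of a polymorphic heavy chain, encoded in the mouse by H2-K1 and H2-D1, and the invariant light chain B2m. Proteasomes cut cytosolic proteins into peptides, the Tap1 and Tap2 transporter carries the peptides into the endoplasmic reticulum, the aminopeptidase Erap1 trims them there, and tapasin, encoded by Tapbp, holds empty class I molecules beside the transporter until a peptide fits. Interferons induce Psmb8, Psmb9 and Psmb10, which take the place of catalytic subunits of the standard proteasome to form the immunoproteasome. Nlrc5 is a transactivator of class I genes that acts through factors bound to a conserved promoter module. Type 1 classical dendritic cells, which carry Dec205, are known for presenting antigen taken up from outside on class I, called cross-presentation.

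Of the 10 genes, 7 lie on chromosome 17 in the GRCm38 assembly, in or near the MHC. Psmb9 (chr17:34182030-34187330), Tap1 (chr17:34187556-34197225), Psmb8 (chr17:34198195-34201454) and Tap2 (chr17:34204479-34216321) are neighbours, and Psmb9 and Tap1 are read in opposite directions from the gap between them. Tapbp (chr17:33919478-33929290), H2-K1 (chr17:33996012-34000619) and H2-D1 (chr17:35263094-35267497) lie farther out. B2m (chr2:122147687-122153082), Nlrc5 (chr8:94434335-94527272) and Erap1 (chr13:74639573-74693205) are on other chromosomes. The class I heavy chain genes have near-identical copies that can share reads, so the H2 counts are uncertain.

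Promoter sequence from RefSeq on GRCm38.p6, 250 bases before to 50 after the start, was at hand for 8 of the 10 genes. Motifs were searched on both strands. TGACG, the core of sites for CREB and ATF factors and of the class I promoter module, was present in 5 of the 8, against 20.8% of 32851 promoters. CCAAT, the letters that NF-Y binds, was present in 6 of the 8, against 37.4%. The windows of Psmb9 and Tap1 overlap, and their TGACG matches are the same site, as are their CCAAT matches. Each of these sites is thus counted for both genes, and the counts are of genes while the shares are of promoters. The letters GAAA, any 2 bases, then GAAA, a core of interferon response elements, were present in B2m and Erap1, against 3.44%. The ETS letters GGAA were in all 8, but also in 96% of promoters, and the longer ETS form CCGGAAG was in none of the 8, against 8.86%. After these matches had been seen, TGACG followed 20 bases later by CCAAT on the other strand (ATTGG) was also searched for. That spacing occurred in 31 of the 32851 promoters, 0.0944%, and 4 of them, from 3 genes, belonged to B2m, H2-D1 and H2-K1 (with 2 starts), the genes of the class I molecule itself. As the spacing was chosen with the matches of these genes known, the share is no test of it. The 2 H2-K1 windows hold the same site, and the promoters of H2-K1 and H2-D1 share long stretches of sequence. The 3 elements are shown on the strand of the gene, 5′ to 3′, with both motifs in capitals; they start at -78, -41 (or -55 from another start of the same gene) and -101 from the start of transcription.
B2m, chr2:122147609-122147638, plus strand: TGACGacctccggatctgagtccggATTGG
H2-K1, chr17:34000359-34000388, minus strand: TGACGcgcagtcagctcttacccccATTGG
H2-D1, chr17:35262993-35263022, plus strand: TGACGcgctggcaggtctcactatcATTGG
The stretch between Psmb9 and Tap1 is shown because their levels differed between subsets in a like manner; it reads toward Tap1 on the plus strand, and the capitals mark TGACG, which the promoter windows of both genes contain.
Tap1, chr17:34187356-34187555: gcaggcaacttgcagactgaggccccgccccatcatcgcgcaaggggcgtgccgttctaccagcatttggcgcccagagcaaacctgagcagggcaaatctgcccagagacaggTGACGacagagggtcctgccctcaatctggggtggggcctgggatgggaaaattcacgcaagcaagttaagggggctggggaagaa
A match describes letters in the window; factor binding was not measured.

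The libraries held 14434287 to 20709265 counts, and the 10 genes took 1.18% to 1.81% of them, from 1.70% to 1.81% in Dec205 libraries down to 1.18% to 1.48% in Esamhi libraries. Bulk libraries cannot tell fewer cells of a type from less RNA per cell. Etv6 RNA was 205 and 219 CPM in CKO Dec205 libraries, against 337 and 375 CPM in WT (log2 fold change -0.75 ± 0.10 SE, adjusted p = 0.000996 by edgeR's quasi-likelihood test with Benjamini-Hochberg adjustment). It was 363 and 322 CPM in CKO pDC libraries, against 346 and 352 CPM in WT, and 370.1 and 362 CPM in CKO Esamlo libraries, against 426 and 512 CPM in WT. It was 389.8 and 434 CPM in CKO Esamhi libraries, against 492 and 451 CPM in WT. The CKO values lay below the WT values in Dec205, Esamlo and Esamhi, and Etv6 passed the test in no single subset but Dec205 and in the mean of the 4 subsets (-0.33, adjusted p = 0.00195); in a fit of the 4 Dec205 libraries alone its adjusted p was 0.053. The female-specific RNA Xist was 114 to 355 CPM in all CKO libraries and at most 1.44 CPM in all WT libraries, and Y-linked Ddx3y was at most 1.95 CPM in CKO and 105 to 222 CPM in WT. Genotype and sex of the mice cannot be told apart in any comparison of CKO with WT.

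Per kilobase of exon, the class I molecule was by far the most abundant product of the set. B2m ran at 4777 to 6020 CPM per kilobase over the 8 group means, H2-K1 at 1765 to 2323 and H2-D1 at 1562 to 2485. Psmb8 ran at 263 to 696, Psmb9 at 159 to 517 and Tapbp at 228 to 458 CPM per kilobase, with both proteasome subunits above Tapbp in Dec205 and both below it in pDC. Tap1 ran at 100.1 to 309 and Tap2 at 58.4 to 162 CPM per kilobase. Erap1, at 16.1 to 26.8, and the regulator Nlrc5, at 11.6 to 22.6, were the least abundant. The abundant members were also the steadiest: the highest group mean of B2m was 1.26 times its lowest, and that of H2-K1 1.32 times. The widest ranges were those of Psmb9, at 3.26 times, Tap1, at 3.08 times, Tap2, at 2.77 times, and Psmb8, at 2.65 times, and all 4 were highest in Dec205 cells.

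**Figure D1:**
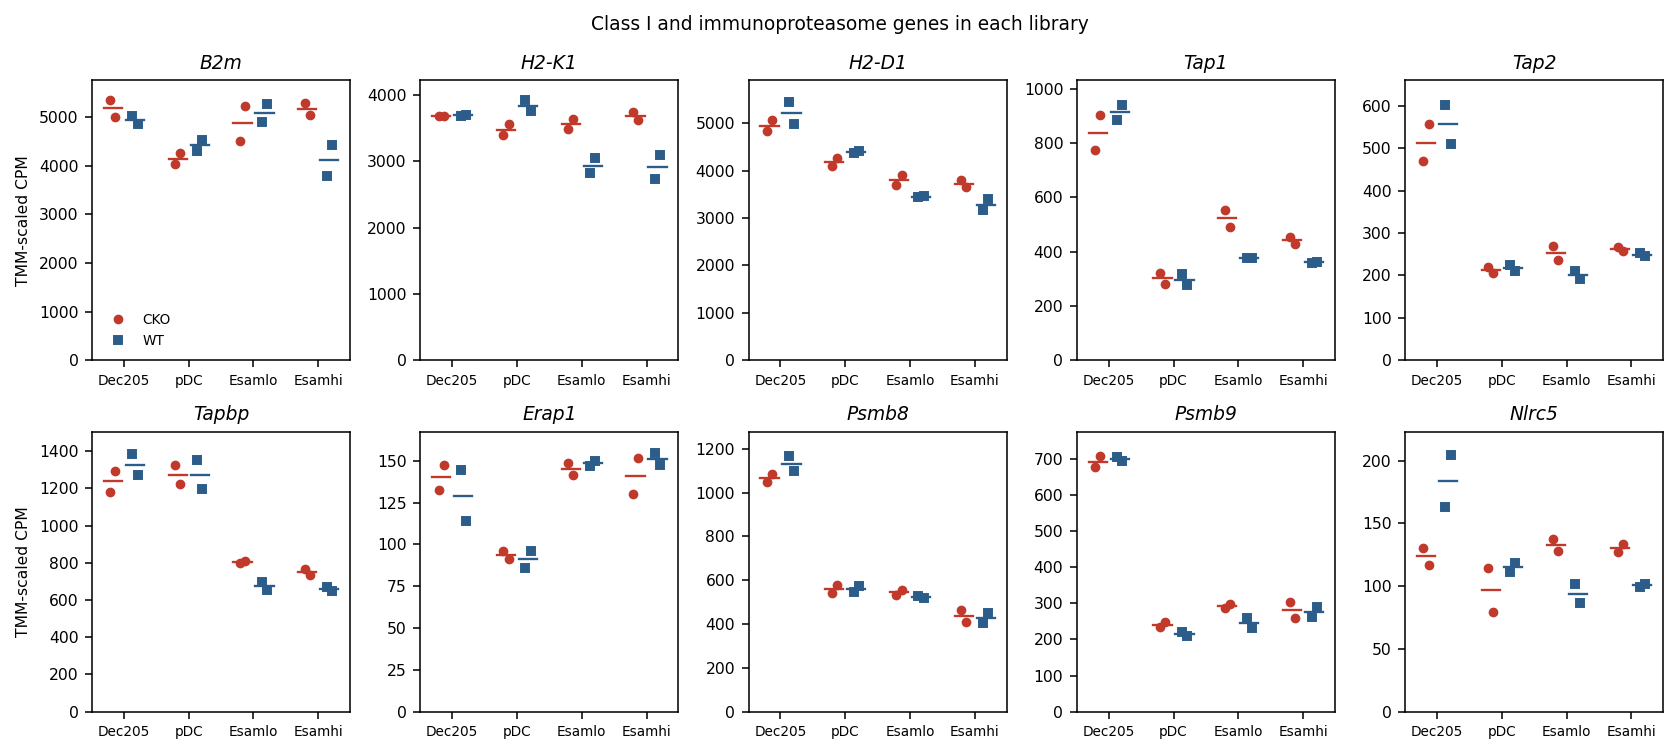
TMM-scaled CPM of each gene (vertical axes, from 0) in the 16 libraries by subset; red circles are CKO libraries, blue squares WT libraries, and bars the means of 2. Tap1, Tap2, Psmb8 and Psmb9 are highest in Dec205 libraries of both genotypes, and Nlrc5 is spread most between genotypes.

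Dec205 cells of WT mice carried more RNA for the transporter, the proteasome subunits Psmb8 and Psmb9, and Nlrc5 than each of the other WT subsets. Of the 10 genes, 7 were higher in Dec205 than in pDC cells, 8 higher than in Esamlo cells and 9 higher than in Esamhi cells, and none was lower (adjusted p under 0.05, edgeR's quasi-likelihood test with Benjamini-Hochberg adjustment over all tested genes, as for every adjusted p here). With library size as the only scaling, H2-K1 was called lower in Dec205 than in pDC (-0.30 on the log2 scale, adjusted p = 0.00275), and Erap1 lower than in Esamlo (-0.34, adjusted p = 0.0403) and Esamhi (-0.33, adjusted p = 0.0417). These subsets differ in much of the transcriptome: the share of all tested genes called, in either direction, was 47.6% between Dec205 and pDC, 34.2% between Dec205 and Esamlo and 37.4% between Dec205 and Esamhi, and the share called higher in Dec205 was 25.2%, 16.1% and 17.9% of genes.

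Tap1, the transporter's first chain, had 885 and 939 CPM in WT Dec205 libraries, against 316 and 276 CPM in pDC, 377 and 376 CPM in Esamlo and 359 and 361 CPM in Esamhi libraries. Its 2 Dec205 values lay far above all 6 of the others, by 3.08-fold over pDC, 2.42-fold over Esamlo and 2.53-fold over Esamhi (adjusted p = 4.37e-08, 1.19e-06 and 5.68e-07, edgeR). Tap2, the partner chain, had 602 and 510 CPM in Dec205 libraries, against 226 and 211 CPM in pDC, 211 and 191 CPM in Esamlo and 252 and 245 CPM in Esamhi libraries. It was 2.55-fold higher than in pDC (adjusted p = 4.92e-07), 2.76-fold higher than in Esamlo (adjusted p = 7.65e-07) and 2.24-fold higher than in Esamhi (adjusted p = 3.82e-06). Among the other subsets the order of Tap2 was not resolved, with adjusted p = 0.175 between Esamhi and pDC and 0.406 between pDC and Esamlo.

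Psmb8 and Psmb9, like the transporter, were highest in Dec205. Psmb9, which takes the place of Psmb6, had 705 and 694 CPM in WT Dec205 libraries, against 220 and 209 CPM in pDC, 260 and 231 CPM in Esamlo and 261 and 289 CPM in Esamhi libraries. Dec205 was 3.26-fold above pDC, 2.85-fold above Esamlo and 2.54-fold above Esamhi (adjusted p = 1.37e-08, 1.44e-07 and 2.89e-07). Psmb8, which takes the place of Psmb5, had 1168 and 1098 CPM in Dec205, against 544 and 574 CPM in pDC, 530 and 521 CPM in Esamlo and 404 and 452 CPM in Esamhi libraries. The Dec205 values again stood apart from all others, at 2.03-fold, 2.16-fold and 2.65-fold (adjusted p = 4.98e-07, 7.53e-07 and 7.73e-08). The standard subunits were also highest in WT Dec205. Psmb5 averaged 108 CPM there, against 61.2, 61.9 and 56.2 CPM in pDC, Esamlo and Esamhi. In the same order, Psmb6 averaged 172 CPM, against 140, 110 and 92.4 CPM, and Psmb7 140 CPM, against 57.4, 74.9 and 60.4 CPM. Psmb10, also inducible, averaged 122 CPM in WT Dec205, against 119, 114 and 94.4 CPM.

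Nlrc5 was also highest in Dec205, with a smaller gap and more scatter. It had 163 and 204 CPM in WT Dec205 libraries, against 111 and 119 CPM in pDC, 101 and 86.8 CPM in Esamlo and 99.5 and 102 CPM in Esamhi libraries. Both Dec205 values exceeded every other WT value, and the log2 differences were 0.68 ± 0.16 over pDC, 0.97 ± 0.16 over Esamlo and 0.87 ± 0.16 over Esamhi (SE, adjusted p = 0.00338, 0.000467 and 0.000883). The other WT subsets did not differ from each other in Nlrc5 beyond their spread, with adjusted p from 0.158 to 0.829.

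Tapbp and H2-K1 did not share the pattern, and H2-D1 shared it with smaller gaps and a less firm call over pDC. Tapbp was high in Dec205 and pDC alike, with 1383 and 1272 CPM in WT Dec205 libraries, against 1353 and 1194 CPM in pDC, 699 and 654 CPM in Esamlo and 670 and 651 CPM in Esamhi libraries. Its values in Dec205 and pDC overlapped (adjusted p = 0.58), and Dec205 was 1.96-fold above Esamlo and 2.01-fold above Esamhi (adjusted p = 1.96e-06 and 1.13e-06). H2-K1 had 3690 and 3701 CPM in WT Dec205 libraries and 3928 and 3761 CPM in pDC (adjusted p = 0.535), against 2824 and 3045 CPM in Esamlo and 2741 and 3102 CPM in Esamhi libraries. The 2 groups of high values did not overlap with the 2 groups of low values, and Dec205 was 1.26-fold above Esamlo and 1.26-fold above Esamhi (adjusted p = 0.00282 and 0.00217). H2-D1 fell in the order Dec205, pDC, Esamlo and Esamhi, with 5460 and 4987 CPM in Dec205, against 4380 and 4421 CPM in pDC, 3439 and 3462 CPM in Esamlo and 3169 and 3397 CPM in Esamhi libraries. Only the last step was not resolved (adjusted p = 0.66). The call of Dec205 over pDC (adjusted p = 0.00834) was lost without Dec205 WT replicate 1 (adjusted p = 0.0946), and with library size as the only scaling its log2 value was 0.0013.

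By their WT means, B2m and Erap1 were not highest in Dec205. B2m had 5022 and 4865 CPM in WT Dec205 libraries, against 4308 and 4527 CPM in pDC, 4901 and 5273 CPM in Esamlo and 3789 and 4427 CPM in Esamhi libraries. Ranked by their means, no neighbours differed beyond their spread. The difference of Dec205 over Esamhi, 0.27 on the log2 scale, passed the test (adjusted p = 0.0333) but not without Dec205 WT replicate 1 or 2 or Esamhi WT replicate 1 (adjusted p = 0.14, 0.0726 and 0.302). Erap1 was lowest in pDC, with 144 and 114 CPM in Dec205 libraries, against 85.9 and 96.3 CPM in pDC, 147 and 150 CPM in Esamlo and 154 and 148 CPM in Esamhi libraries. pDC lay 0.70 ± 0.12 below Esamlo and 0.73 ± 0.12 below Esamhi on the log2 scale (SE, adjusted p = 0.00042 and 0.000293). Dec205 over pDC was 0.50 on that scale (adjusted p = 0.00439), but 0.32 without Dec205 WT replicate 1 (adjusted p = 0.06). Without that library Erap1 was also called lower in Dec205 than in Esamlo (-0.40, adjusted p = 0.0375) and Esamhi (-0.42, adjusted p = 0.0264).

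Between pDC and the ESAM subsets, 5 of the 10 genes differed against Esamlo, 3 higher and 2 lower in pDC (of all genes 45.7% were called, 20.2% higher and 25.4% lower), and 7 against Esamhi, 4 higher and 3 lower (of all genes 47.1% were called, 21.4% higher and 25.7% lower). H2-K1, H2-D1 and Tapbp were the 3 genes higher in pDC in both, and Tap1 and Erap1 were lower in both. The Tap1 values, -0.35 against Esamlo (adjusted p = 0.0127) and -0.28 against Esamhi (adjusted p = 0.0345), did not pass without pDC WT replicate 2 (adjusted p = 0.128 and 0.229) or without either WT library of the subset it was compared with. Psmb9 and Psmb8 differed between pDC and Esamhi only, Psmb9 lower in pDC (-0.36, adjusted p = 0.00677, and 0.0702 without Esamhi WT replicate 2) and Psmb8 higher (0.39, adjusted p = 0.00199). Between Esamlo and Esamhi none of the 10 was called, against 5.81% of all genes; 3 of them had an unadjusted p under 0.05, against 18.6% of all genes, and DESeq2 called 3.

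Within CKO mice Dec205 was again highest for the transporter and both proteasome subunits. Dec205 against pDC, Esamlo and Esamhi called 7, 6 and 6 of the 10 genes, all higher, against 44.6%, 33.3% and 38.3% of all genes called in either direction and 23.2%, 15.1% and 17.9% called higher. Tap1 in CKO Dec205 libraries was 2.78-fold above pDC, 1.60-fold above Esamlo and 1.90-fold above Esamhi, and Psmb9 2.87-fold, 2.37-fold and 2.46-fold above them. Nlrc5 was not highest there: CKO Dec205 libraries had 131 and 117 CPM, against 114 and 79.6 CPM in pDC, 138 and 128 CPM in Esamlo and 127 and 134 CPM in Esamhi libraries. The CKO Dec205 values of Nlrc5 overlapped with those of both ESAM subsets (adjusted p = 0.664 against Esamlo and 0.756 against Esamhi). H2-K1 in CKO libraries spanned 3402 to 3749 CPM over all 4 subsets, and none of its 6 subset pairs was called, against 4 of 6 in WT. Between pDC and the ESAM subsets of CKO mice, Nlrc5 was lower in pDC, by log2 values of -0.46 against Esamlo and -0.43 against Esamhi (adjusted p = 0.0332 and 0.0418), and so was Tap1, by -0.79 and -0.55 (adjusted p = 3.53e-05 and 0.000646). In all, 5 of the 10 differed there against Esamlo, 1 higher (Tapbp) and 4 lower (of all genes 42.6% were called, 18.9% higher and 23.6% lower), and 7 against Esamhi, 2 higher and 5 lower (of all genes 45.6% were called, 21.2% higher and 24.5% lower).

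**Figure D2:**
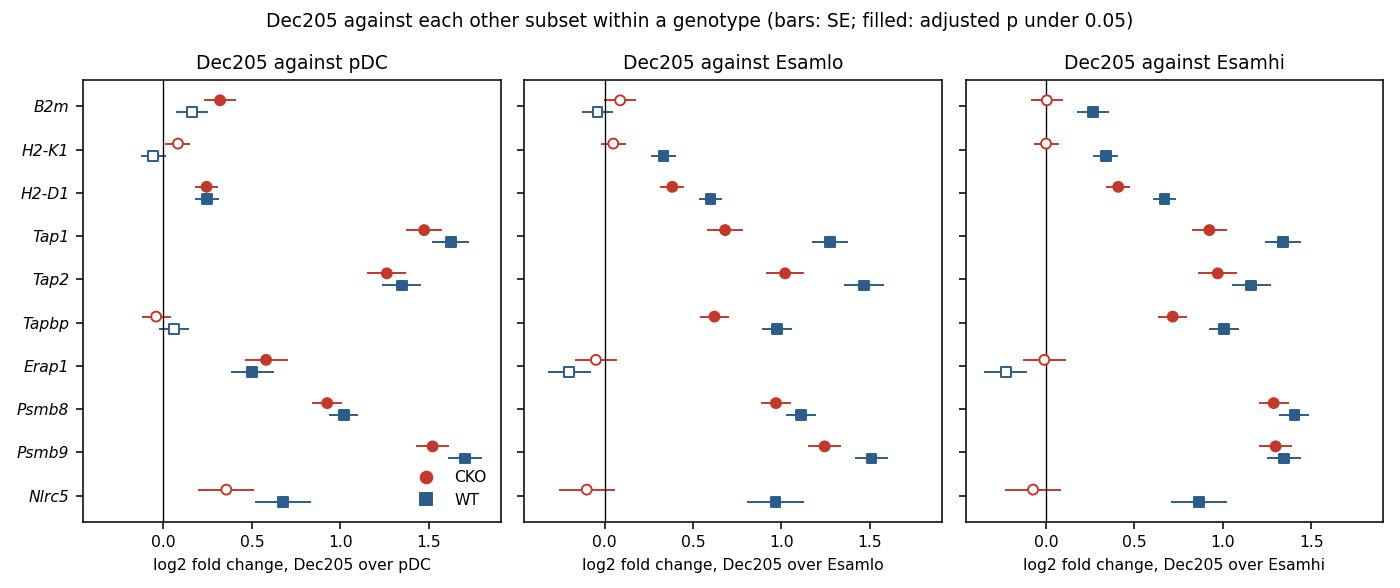
Log2 fold change of Dec205 over pDC, Esamlo and Esamhi (horizontal axes) for each gene, in CKO (red circles) and WT (blue squares); bars are standard errors and filled points have an adjusted p under 0.05. Nlrc5 lies at 0.97 over Esamlo and 0.87 over Esamhi in WT, and at -0.10 and -0.074 in CKO.

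Within a subset, few of the 10 genes passed the test of CKO against WT. None passed the test in Dec205 (6.78% of all genes did), pDC (1.85%) or Esamlo (0.551%), and 1 of the 10, H2-K1, passed in Esamhi (0.877%). At an unadjusted p under 0.05 the counts were 1 for Dec205 (22.7% of all genes), 0 for pDC (10.7%) and 6 for each ESAM subset (7.9% of all genes in Esamlo and 7.48% in Esamhi); DESeq2 called 1 gene in Dec205, none in pDC and 2 in each ESAM subset. Averaged over the 4 subsets, none passed (5.82% of all genes did). An unadjusted p under 0.05 was found for 3 (18.4% of all genes), and DESeq2 called 2, H2-K1 and Tap1. All 10 averages were above 0, but that of Nlrc5 joined values of opposite sign (-0.57, -0.25, 0.50 and 0.37 in Dec205, pDC, Esamlo and Esamhi). Psmb8 had only -0.087, 0.0056, 0.053 and 0.030 in that order. The standard errors of the log2 fold changes within a subset ran from 0.07 for H2-K1 and H2-D1 to 0.16 for Nlrc5.

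In Dec205 cells, the subset where Etv6 RNA passed the test, 8 of the 10 log2 values were below 0 and their median was -0.083, against 0 over all tested genes. All CKO libraries lay below all WT libraries for 3 of the 10, against 21.1% of all genes. Nlrc5 was the gene with an unadjusted p under 0.05, with 131 and 117 CPM in CKO libraries, against 163 and 204 CPM in WT. The groups did not overlap, and the log2 fold change was -0.57 ± 0.16 SE, with adjusted p = 0.0509, just short of a call. Leaving out each of the 16 libraries in turn gave values from -0.71 to -0.40, called in 3 fits (without Dec205 WT replicate 1, pDC CKO replicate 1 or pDC CKO replicate 2), and DESeq2 gave adjusted p = 0.0122. Tap1 had 773 and 901 CPM in CKO Dec205 libraries, against 885 and 939 CPM in WT, and Psmb8 had 1047 and 1086 CPM, against 1168 and 1098 CPM. Neither passed the test (adjusted p = 0.517 and 0.594). H2-D1, Tap2 and Tapbp had log2 fold changes of -0.078, -0.12 and -0.10, H2-K1 and Psmb9 had -0.0040 and -0.012, and B2m and Erap1 had 0.067 and 0.12. A list of 14 B cell markers, all in the table, summed to 541 to 1086 CPM in CKO Dec205 libraries and 281 to 286 CPM in WT. The 10 pDC markers summed to 455 to 535 CPM in CKO and 245 to 248 CPM in WT. Members of that list did not all move alike: Ccr9 was lower in CKO (38.0 to 66.6 against 79.3 to 98.9 CPM), and Siglech was 2.66 to 4.46 against 1.01 to 1.75 CPM. The 10 type 2 classical markers summed to 452 to 506 CPM in CKO and 317 to 339 CPM in WT. By contrast, 9 macrophage markers summed to 133 to 155 CPM in CKO and 232 to 261 CPM in WT. The part of these lists in these values was not tested.

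In pDC the medians were near 0, at -0.016 for the 10 genes and 0.0068 for all tested genes, and all CKO libraries lay below all WT libraries for B2m, H2-K1 and H2-D1, 3 of the 10, against 16.7% of all genes. H2-K1 had 3402 and 3562 CPM in CKO pDC libraries, against 3928 and 3761 CPM in WT (log2 fold change -0.14 ± 0.07 SE, adjusted p = 0.52). Nlrc5 had 114 and 79.6 CPM, against 111 and 119 CPM (adjusted p = 0.674), the widest spread of any of the 10 genes within a group. B2m and H2-D1 had log2 fold changes of -0.091 and -0.074, Tap1, Tap2 and Tapbp had 0.026, -0.031 and -0.00055, and Psmb8, Psmb9 and Erap1 had 0.0056, 0.17 and 0.038. The CKO and WT values of Etv6 overlapped in pDC. In these libraries 8 monocyte markers summed to 1626 to 1792 CPM in CKO and 2286 to 2287 CPM in WT, and 10 T cell markers to 377 to 407 CPM and 306 to 308 CPM. Both lists were higher in pDC than in every other subset, where they reached at most 1496 and 107 CPM. Of the monocyte list, Fcgr1, F13a1 and Vcan had no counts in WT pDC. The part of these lists in the pDC values was not tested.

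In Esamlo, 8 of the 10 log2 values were above 0, with a median of 0.25 against 0.0064 over all genes. All CKO libraries exceeded all WT libraries for 8 of the 10, a separation that 23.1% of all genes showed in that direction, and none was called. Tap1 had 553 and 492 CPM in CKO Esamlo libraries, against 377 and 376 CPM in WT, a log2 fold change of 0.47 ± 0.10 SE with adjusted p = 0.0728. The adjusted p of Tap1 fell below 0.05 without Dec205 CKO replicate 1 or 2, with no filter on low counts (0.0424) and in DESeq2 (0.000562). H2-K1 had 3495 and 3635 CPM in CKO libraries, against 2824 and 3045 CPM in WT (0.28 ± 0.07 SE, adjusted p = 0.144). Nlrc5 had 138 and 128 CPM, against 101 and 86.8 CPM (0.50 ± 0.16 SE, adjusted p = 0.321). H2-D1, Tap2, Tapbp and Psmb9 had log2 fold changes of 0.14, 0.33, 0.25 and 0.25, and B2m, Psmb8 and Erap1 had -0.061, 0.053 and -0.034.

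In Esamhi, 9 of the 10 values were above 0, with a median of 0.19, and all CKO libraries exceeded all WT libraries for 7 of the 10, against 22.4% of all genes. H2-K1 rose to 3749 and 3622 CPM in CKO Esamhi libraries, against 2741 and 3102 CPM in WT. The groups were well apart, and the log2 fold change of 0.34 ± 0.07 SE had adjusted p = 0.0494. That call was lost in each of the 16 fits that left out a library (log2 fold change 0.25 to 0.43, adjusted p from 0.0505 to 0.568). B2m, its light chain, had 5286 and 5038 CPM in CKO, against 3789 and 4427 CPM in WT (0.33 ± 0.09 SE, adjusted p = 0.164). Tap1 had 454 and 428 CPM, against 359 and 361 CPM (adjusted p = 0.375), and Nlrc5 had 127 and 134 CPM, against 99.5 and 102 CPM (adjusted p = 0.582). These members were higher in both CKO libraries without passing the test, while Psmb8, Psmb9 and Tap2 had log2 fold changes of 0.030, 0.036 and 0.073. H2-D1, Tapbp and Erap1 had 0.18, 0.19 and -0.10.

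Marker lists moved with genotype in the ESAM subsets too. In Esamlo, B cell markers summed to 662 to 1592 CPM in CKO libraries and 440 to 609 CPM in WT, and 8 neutrophil markers to 51.2 to 52.4 CPM and 18.3 to 25.7 CPM. The type 1 classical list was higher there in CKO (1342 to 1375 against 1142 to 1281 CPM). It includes Irf8, itself at 447 and 410 CPM in CKO and 331 and 287 CPM in WT. The pDC list was higher too (373 to 438 against 335 to 345 CPM). Of its genes, Siglech was lower in CKO (3.73 to 4.40 against 5.84 to 6.82 CPM) and Ccr9 overlapped (14.3 to 16.4 against 9.82 to 24.7 CPM). The type 2 classical list was lower (2532 to 2554 against 2878 to 2978 CPM), and so was the ESAM-high list (301 to 325 against 390 to 394 CPM). In Esamhi, B cell markers summed to 437 to 583 CPM in CKO and 527 to 529 CPM in WT, neutrophil markers to 45.3 to 48.4 CPM and 9.48 to 10.2 CPM, 6 genes typical of ESAM-low and monocyte-like cells to 1192 to 1288 CPM and 587 to 607 CPM, and 5 genes typical of ESAM-high cells to 931 to 969 CPM and 1269 to 1284 CPM. Both classical lists were lower in CKO Esamhi, type 1 at 932 to 958 against 1054 to 1286 CPM and type 2 at 3093 to 3133 against 3300 to 3563 CPM. The pDC list was higher, at 352 to 396 against 297 to 302 CPM. The part of these lists in the values of the 10 genes was not tested.

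**Figure D3:**
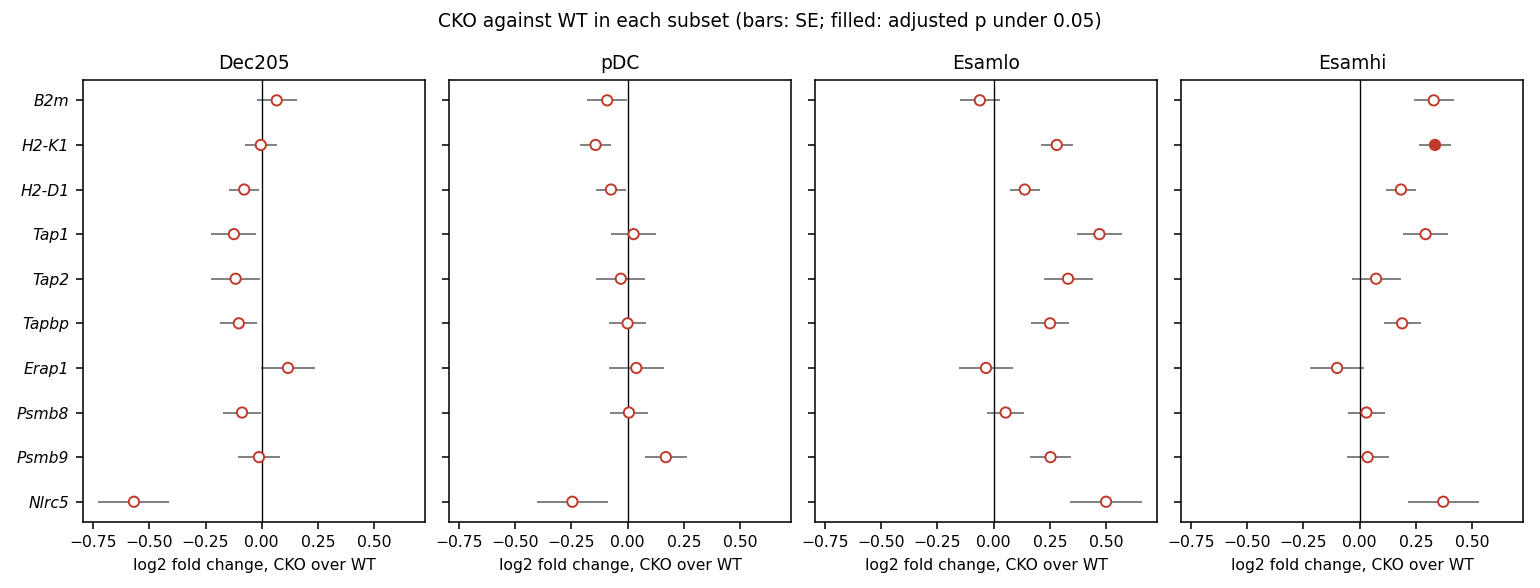
Log2 fold change of CKO over WT (horizontal axes) for each gene in the 4 subsets; bars are standard errors and the filled point has an adjusted p under 0.05. Nlrc5 lies at -0.57 for Dec205, -0.25 for pDC, 0.50 for Esamlo and 0.37 for Esamhi, and H2-K1 in Esamhi is the filled point.

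Whether the effect of CKO differed between subsets was tested directly. A joint test over the 4 subsets called 2 of the 10 genes, against 2.44% of all genes: H2-K1 (adjusted p = 0.0443) and Nlrc5 (adjusted p = 0.0464). Between Dec205 and Esamlo the effects on Nlrc5 differed by -1.07 ± 0.22 SE on the log2 scale (adjusted p = 0.0359), the only one of the 10 called there against 1.53% of all genes, and between Dec205 and Esamhi by -0.94 ± 0.22 SE (adjusted p = 0.0559), where none of the 10 and 1.91% of all genes were called. The same contrast for Tap1 was -0.59 ± 0.14 SE between Dec205 and Esamlo (adjusted p = 0.0658). Between Dec205 and pDC none of the 10 effects differed at an unadjusted p under 0.05, against 16.2% of all genes, and DESeq2 called 0 (2.41% of all genes were called). These calls depended on single libraries: over the 16 fits that left out a library, the joint adjusted p ran from 0.0273 to 0.117 for H2-K1 and from 0.0129 to 0.117 for Nlrc5, and the contrast of Nlrc5 between Dec205 and Esamlo stayed past the threshold in 5 of them, with values from -1.21 to -0.90. The sign of that contrast was the same in all 16.

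Irf1, an interferon-induced activator of class I and immunoproteasome promoters, had 406 and 400.4 CPM in CKO Dec205 libraries, against 502 and 548 CPM in WT. It had 883 and 865 CPM in CKO pDC, against 824 and 749 CPM in WT. It had 439 and 419 CPM in CKO Esamlo, against 257 and 239 CPM in WT, and 377 and 339 CPM in CKO Esamhi, against 188 and 202 CPM in WT. Irf1 was thus lower in CKO in Dec205 (log2 fold change -0.38 ± 0.08 SE, adjusted p = 0.0168) and higher in Esamlo (0.79 ± 0.08 SE, adjusted p = 0.0006) and Esamhi (0.88 ± 0.08 SE, adjusted p = 0.000171), and the effects differed between subsets (joint adjusted p = 0.000408). The fall in Dec205 was lost without Dec205 WT replicate 2 (adjusted p = 0.113), Dec205 CKO replicate 1 (adjusted p = 0.0583) or Dec205 CKO replicate 2 (adjusted p = 0.0579).

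Irf8, an interferon regulatory factor, rose 1.75-fold in Esamhi, to 139 ± 18 CPM in CKO against 79.6 ± 5.0 CPM in WT (SD, n = 2 each; adjusted p = 0.00149). Of the 22 regulators, 4 were called for Dec205 (6.78% of all genes were) and 0 for pDC (1.85%). For Esamlo 1 was called (Irf1, against 0.551% of all genes), and for Esamhi 2 (Irf1 and Irf8, against 0.877%). In pDC 1 had an unadjusted p under 0.05, against 10.7% of all genes, and DESeq2 called 0. In Dec205 the others called were the interferon signalling and receptor genes Stat2 (log2 fold change 0.66) and Ifnar2 (0.59), higher, and Ifngr2 (-0.36), lower. Of the 4 Dec205 calls, 0 were left without Dec205 WT replicate 2 and in a fit of the 4 Dec205 libraries alone, 1 without Dec205 CKO replicate 1, and DESeq2 called 7.

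**Figure D4:**
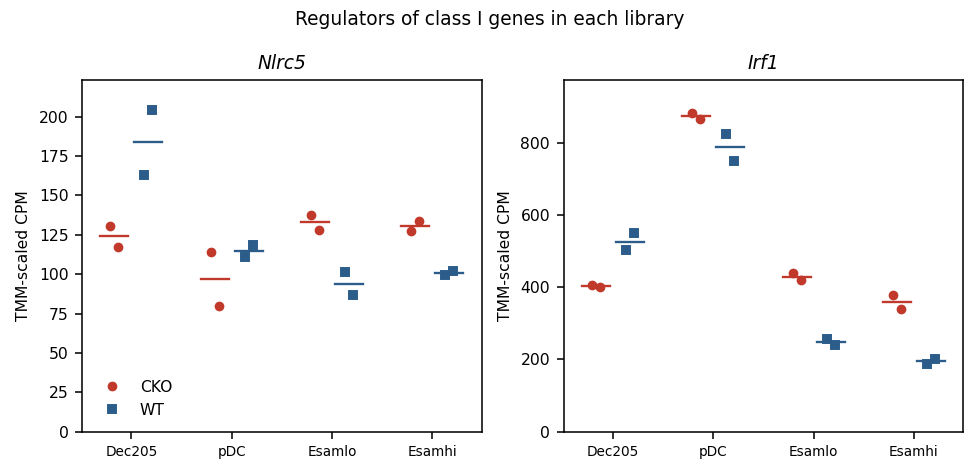
TMM-scaled CPM of Nlrc5 and Irf1 (vertical axes, from 0) in each library; red circles are CKO, blue squares WT, and bars the means of 2. Nlrc5 and Irf1 are lower in CKO in Dec205 and higher in CKO in Esamlo and Esamhi; the Nlrc5 differences did not pass the test within any subset.

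The rest of the proteasome was compared with the inducible subunits. None of the 14 genes of the standard core particle was called in any subset, where their median log2 fold change was -0.10 for Dec205, 0.047 for pDC, -0.20 for Esamlo and -0.061 for Esamhi. In that order 1, 0, 4 and 0 of them had an unadjusted p under 0.05 (22.7%, 10.7%, 7.9% and 7.48% of all genes did), and DESeq2 called 0 in each. In Esamlo all 14 values were below 0. Psmb10, the third inducible subunit, had 173 and 172 CPM in CKO Dec205 libraries, against 126 and 118 CPM in WT, and 158 and 169 CPM in CKO pDC, against 117 and 121 CPM in WT. It rose 1.42-fold in Dec205 (adjusted p = 0.00552) and 1.37-fold in pDC (adjusted p = 0.0202), and 1.24-fold over the mean of the 4 subsets (adjusted p = 0.00129). The Dec205 call was kept in all 16 fits that left out a library but not in a fit of the 4 Dec205 libraries alone (adjusted p = 0.139), and the pDC call was lost without any of the 4 pDC libraries. Pomp, the assembly factor of new proteasomes, rose 1.37-fold in pDC (adjusted p = 0.0318), a call lost without any of the 4 pDC libraries, any Esamlo WT or any Esamhi WT library. The monocyte and T cell marker sums given above moved with genotype in the same pDC libraries, and their part in these calls was not tested.

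As a ratio of counts per kilobase, each inducible subunit was set against the standard subunit it replaces. Psmb8 exceeded Psmb5 in every library, from 4.08 to 5.99 times. This ratio averaged 5.66 in CKO and 5.81 in WT Dec205 cells, and 4.29 and 5.04 in pDC. It averaged 5.06 and 4.70 in Esamlo, and 4.89 and 4.203 in Esamhi. In WT the ratio thus set Dec205 apart from the other subsets by less than Psmb8 alone did, as Psmb5 was also highest there. Psmb9 over Psmb6 was 2.52 ± 0.03 in CKO and 2.40 ± 0.21 in WT Dec205 cells, 1.01 ± 0.05 and 0.903 ± 0.071 in pDC, 1.79 ± 0.14 and 1.32 ± 0.17 in Esamlo, and 1.98 ± 0.20 and 1.76 ± 0.03 in Esamhi (SD, n = 2 each). Psmb9 was thus near parity with its counterpart in pDC and well above it in Dec205, in both genotypes. Psmb10 over Psmb7 ran in another order: 1.34 ± 0.13 in CKO and 0.769 ± 0.026 in WT Dec205 cells, 2.63 ± 0.08 and 1.84 ± 0.03 in pDC, 1.82 ± 0.02 and 1.34 ± 0.01 in Esamlo, and 1.54 ± 0.05 and 1.38 ± 0.04 in Esamhi. Its highest ratios were in pDC, and the CKO libraries lay above the WT libraries in all 4 subsets. The denominator was lower in CKO too, with Psmb7 means of 115 against 140 CPM in Dec205 and 61.1 against 74.9 CPM in Esamlo. Psmb10 itself averaged 126 CPM in CKO against 114 CPM in WT in Esamlo, and 103 against 94.4 CPM in Esamhi, neither called. The ratios were not tested between groups.

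**Figure D5:**
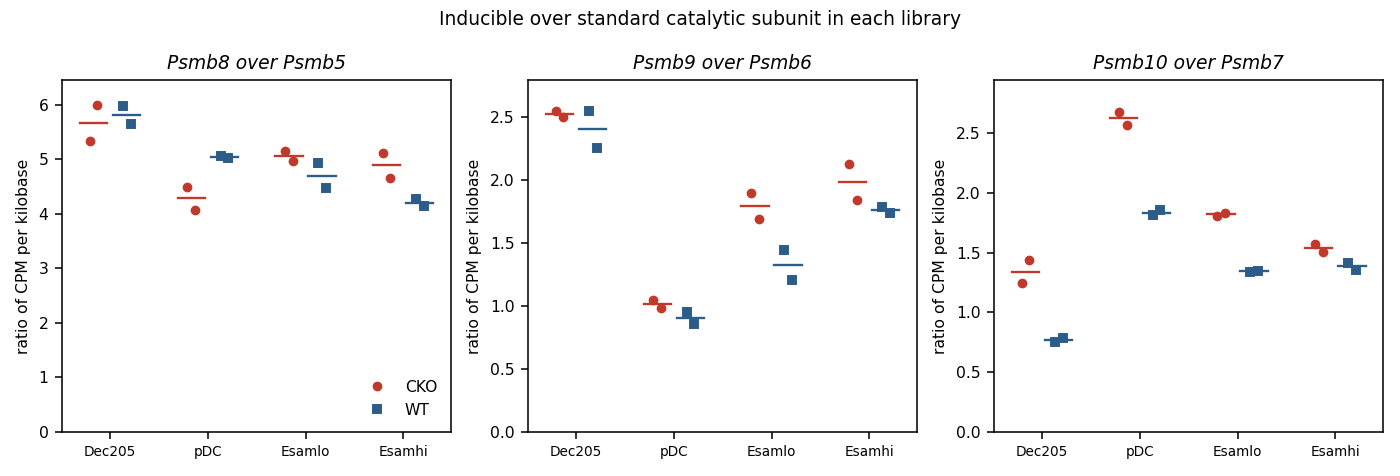
Ratio of CPM per kilobase of each inducible proteasome subunit over the standard subunit it replaces (vertical axes, from 0) in each library; red circles are CKO, blue squares WT, and bars the means of 2. Psmb9 over Psmb6 is highest in Dec205 and lowest in pDC, and Psmb10 over Psmb7 is highest in pDC and higher in CKO than in WT libraries of every subset.

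Of the other steps of the pathway, only heavy chain and class I-like genes were called, and only in Dec205. Of 22 further such genes in the table, 20 were tested, and 2 were called there, against 6.78% of all genes. They were H2-M2, at 23.6 ± 0.3 CPM in CKO against 67.9 ± 18.9 CPM in WT (SD, n = 2 each, log2 fold change -1.52, adjusted p = 0.0068), and H2-K2, at 70.0 ± 5.1 against 96.1 ± 3.5 CPM (-0.46, adjusted p = 0.0272). The H2-K2 call was lost without Dec205 WT replicate 2 or Dec205 CKO replicate 2 (log2 fold change -0.42 and -0.38). In an edgeR fit of the 4 Dec205 libraries alone, neither H2-M2 (adjusted p = 0.0621) nor H2-K2 (adjusted p = 0.315) was called. None was called in the other subsets, where 0 in pDC, 8 in Esamlo and 8 in Esamhi had an unadjusted p under 0.05 (10.7%, 7.9% and 7.48% of all genes did) and DESeq2 called 0, 4 and 1. The median log2 fold change of these 20 was 0.18 in Esamlo and 0.19 in Esamhi, near that of the 10 genes, and reads shared between copies may tie the values. Of 10 chaperones and loading factors and 8 cytosolic peptidases, none was called in any subset. An unadjusted p under 0.05 was found for 3 chaperones and 1 peptidase in Dec205 (22.7% of all genes), 0 and 1 in pDC (10.7%), and 1 and 0 in Esamlo (7.9%). DESeq2 called 1 chaperone in Dec205.

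Interferon-stimulated genes, which rise with class I genes after interferon, were called in every subset. Of 30 listed, 12 were called in Dec205 (11 higher and 1 lower), against 6.78% of all genes, and 7 in pDC (6 higher and 1 lower), against 1.85%. In Esamlo 1 was called, against 0.551% of all genes, and in Esamhi 3, against 0.877%. In Dec205, Rtp4 had 22.7 ± 3.9 CPM in CKO and 0.379 ± 0.537 CPM in WT, and the antiviral genes Oas2, Ifit3 and Oas1a had 23.3 ± 3.6, 39.0 ± 2.3 and 30.2 ± 2.0 CPM in CKO against 0.949 ± 1.342, 1.56 ± 2.2 and 1.92 ± 1.47 CPM in WT (SD, n = 2 each; adjusted p = 6.64e-05, 0.000558, 0.00868 and 3.43e-05 for the 4 genes). Rsad2 was lower there, at 7.48 ± 0.79 CPM in CKO and 16.6 ± 4.9 CPM in WT (adjusted p = 0.0361), a call kept in 9 of the 16 fits that left out a library. In pDC, Ifit3, Rtp4, Oas2 and Ddx58 rose and the GTPase gene Irgm1 fell, to 120 ± 14 CPM in CKO, against 201 ± 9 CPM in WT (adjusted p = 0.0159, and 0.094 and 0.163 without pDC WT replicate 2 and pDC CKO replicate 2). The pDC call of Ifit3 was lost without pDC WT replicate 1 or pDC CKO replicate 2. In Esamlo and Esamhi the GTPase gene Ifi47 rose 1.89-fold and 1.82-fold (adjusted p = 0.0111 and 0.0155), and Iigp1 and Cxcl10 rose in Esamhi (adjusted p = 0.0476 and 0.0401). Each Ifi47 call was lost without either WT library or CKO replicate 1 of its subset, and the calls of Iigp1 and Cxcl10 were kept in 5 and 8 of the 16 fits. In a fit of the 4 Dec205 libraries alone, 5 of the 30 were called in Dec205, and in a fit of the 4 Esamhi libraries alone, 6 were called in Esamhi.

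Likeness of profile was measured as the root mean square difference of log2 CPM, each gene centred, over the 8 group means. Within the set, Tap2 and Psmb9 were nearest to each other, at 0.135, followed by H2-K1 and H2-D1, at 0.150, by B2m and H2-K1, at 0.168, and by Tap1 and Psmb9, at 0.181, while Tapbp and Erap1 were farthest apart, at 0.648. Genes that vary little lie near each other without a shared profile. The group means of B2m and H2-K1 had SDs of only 0.140 and 0.155, below their distance, and in WT Esamlo their centred values were 0.11 and -0.24. Of 13780 other tested genes, those nearest to Nlrc5 were Tor4a (0.112), Rspry1 (0.128), Tmco3 (0.132), Pgs1 (0.148) and Ankrd42 (0.148), against a median of 0.631 over all genes. Those nearest to the mean profile of the 10 genes were Psmc1 (0.0716), a subunit of the proteasome's regulatory particle, Atg3 (0.0764), Parp8 (0.0812), Serf2 (0.0861) and Pmpcb (0.0931). These genes were picked as the nearest, so values below the median were given in advance. A gene that did not vary over the groups would lie at 0.297 from Nlrc5 and at 0.303 from the mean profile.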

How the data were processed

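RNA was measured in sorted spleen dendritic cells with the SMART-seq v4 kit (PCR-amplified full-length cDNA, with neither molecular identifiers nor strand), per the labels' protocols. The deposited table holds raw counts per gene, 1 column per library; per the submitters' processing notes the authors used bcl2fastq, Trimmomatic 0.36, Bowtie2 2.2.9 and the mm10 build. How and on which annotation and strand the reads were counted is not given in the sources used here.

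Counts were fitted in edgeR 4.0.16 (R 4.3.3) with TMM factors (0.913 to 1.1), filterByExpr, and 1 coefficient for each of the 8 groups (8 residual degrees of freedom), with robust quasi-likelihood F tests, two-sided. P-values were adjusted by Benjamini-Hochberg over 13790 genes, which held at least 99.98% of each library's counts, and an adjusted p under 0.05 made a call. The SE is the log2 fold change divided by the root of F. Code was tested on simulated counts. Exon lengths came from GENCODE vM21, and positions and promoters (250 bases before to 50 after the start) from RefSeq GRCm38.p6, the same assembly as mm10. Levels counted over PCR reads carry sampling error that covers counting only.

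The rule for named genes took all 10 genes (by counts where a comparison gives no value for one), Etv6, up to 4 called genes per direction of each other pathway list, and the 5 genes nearest in profile to Nlrc5 and to the mean of the 10; likeness used log2 CPM with a prior count of 2. A gene of the regulator list is not reported here. The members and lists were chosen with earlier results of these data known. Alternatives were other scaling factors, no filter, the replicate number as a block, DESeq2 1.42.0, the 4 libraries of a subset alone, the same subset pair in CKO, and leaving out each of the 16 libraries. Contrasts of the CKO effect between 2 subsets, the same alternatives for the pathway lists, and the spaced promoter element were added after seeing the data.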

Additional observations from a re-analysis of the deposited data

Results flagged for a closer look

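The effect of CKO differed between the 4 subsets, by the joint edgeR test with Benjamini-Hochberg adjustment, for 2 of the 10 genes. H2-K1 had log2 fold changes of -0.0040 for Dec205, -0.14 for pDC, 0.28 for Esamlo and 0.34 for Esamhi (adjusted p = 0.0443). Nlrc5 had -0.57, -0.25, 0.50 and 0.37 in the same order (adjusted p = 0.0464), and its effect in Dec205 minus that in Esamlo was -1.07.

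Among the regulators, the joint test passed for Irf1 (adjusted p = 0.000408) and Irf8 (0.0254). Irf1 had log2 fold changes of -0.38, 0.15, 0.79 and 0.88 in Dec205, pDC, Esamlo and Esamhi, and Irf8 had 0.18, -0.0029, 0.47 and 0.80. Irf8 thus had positive values in every subset but pDC.

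Of the interferon-stimulated genes, the joint test passed for Rtp4 (adjusted p = 0.000825), Oas1a (0.00212), Ifi47 (0.0037), Ifi44 (0.0098), Oas2 (0.025), Ifit3 (0.0313) and Irgm1 (0.0409). Rtp4, Oas2 and Ifit3 had their largest fold changes in Dec205 and pDC, Oas1a, Ifi44 and Ifi47 in Dec205, and Irgm1 was lower in CKO pDC (log2 fold change -0.75), against 0.056 to 0.25 in the other subsets. Of these 9 joint calls of regulators and interferon-stimulated genes, 5 held in every alternative. Those of Irf8, Oas2, Ifit3 and Irgm1 were lost in some, and DESeq2 gave Ifit3 a joint adjusted p of 0.211.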

How the results depend on the processing

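Of 36 member calls between WT subsets, 30 held in every alternative other than the same pair in CKO, which was left out of this count. With the same exception, 120 of 126 recomputed counts of these pairs stayed within 1.5 times. In the CKO pair further calls were lost, among them H2-K1 in Dec205 over Esamlo, Nlrc5 in Dec205 over pDC and H2-D1 in pDC over both ESAM subsets. None of the 4 genotype calls held throughout. Library size as the only scaling moved the median of all genes by -0.25 (Dec205 over pDC), -0.14 (Dec205 over Esamlo), -0.10 (Dec205 over Esamhi), 0.11 (pDC over Esamlo) and 0.14 (pDC over Esamhi) on the log2 scale, and it turned Dec205 over pDC to -0.084 for B2m and -0.19 for Tapbp, and gave calls of H2-K1 lower in Dec205 than in pDC (-0.30) and of Erap1 lower than in Esamlo (-0.34) and Esamhi (-0.33). It gave 0 genes called in Esamhi, 0 in the joint test, 0 for Dec205 minus Esamlo and 2 for Esamlo over Esamhi.

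With no filter, 1 gene was called in Dec205, 1 in Esamlo, 0 in Esamhi and 1 for Dec205 minus Esamhi. The 4 Esamhi libraries alone gave 0. DESeq2 called 1 in Dec205, 2 in Esamlo, 2 in Esamhi, 2 for the mean, 4 in the joint test, 3 for Esamlo over Esamhi and 2 for Dec205 minus Esamlo and 2 for Dec205 minus Esamhi. Differences between replicates 1 and 2 were compared over genes. They correlated with r from -0.0692 to 0.0169 between CKO and WT of a subset, and from 0.00719 to 0.116 between subsets of a genotype. With the replicate block 1 gene was called in the joint test and 1 for Esamlo over Esamhi.

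Leaving out each library gave 0 to 1 calls in Dec205, 0 to 1 in Esamlo, 0 in Esamhi, 0 to 1 for the mean, 0 to 1 in the joint test, 5 to 7 for Dec205 over pDC, 8 to 9 for Dec205 over Esamlo and over Esamhi, 0 to 1 for Esamlo over Esamhi, and 0 to 1 for Dec205 minus Esamlo and minus Esamhi. Small log2 values changed sign: for CKO over WT, Tap2 (-0.24 to 0.019) and Erap1 (-0.044 to 0.31) in Dec205, B2m in Esamlo (-0.18 to 0.046) and Erap1 in Esamhi (-0.22 to 0.0056); between WT subsets, Tapbp in Dec205 over pDC (-0.024 to 0.17), B2m in pDC over Esamhi (-0.0069 to 0.22) and Nlrc5 in Esamlo over Esamhi (-0.22 to 0.0076); and for Dec205 minus pDC, Tap2 (-0.20 to 0.053), Tapbp (-0.19 to 0.0022) and Erap1 (-0.079 to 0.27), and for Dec205 minus Esamlo Erap1 (-0.0080 to 0.34).

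The same pair in CKO had the other sign for H2-K1 (0.082) and Tapbp (-0.042) in Dec205 over pDC, Nlrc5 in Dec205 over Esamlo (-0.10), H2-K1 (-0.000316) and Nlrc5 (-0.074) in Dec205 over Esamhi, H2-K1 (-0.034), Tap2 (-0.24) and Nlrc5 (-0.46) in pDC over Esamlo, B2m (-0.32), H2-K1 (-0.082) and Nlrc5 (-0.43) in pDC over Esamhi, and B2m (-0.083), Nlrc5 (0.029) and Psmb9 (0.055) in Esamlo over Esamhi. In promoters of 100 bases before to 50 after the start, GGAA was in 5 of the 8 (80.7% of all promoters) and the interferon core in 1 (1.46%). In that window TGACG was in 3 of the 8 (13.9%) and CCAAT in 4 (23.4%). The cause of these changes was not tested.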
